A study of Mus musculus with 36 samples.

Results

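Imprinted growth genes were followed through the optic nerve and retina of mice before and after injury. The group was a list of 10 gene symbols, Igf2, H19, Dlk1, Meg3, Peg3, Mest, Plagl1, Cdkn1c, Grb10 and Igf2r, out of 55487 genes in the count table. Igf2 and Dlk1 were chosen by their measured change after nerve crush in the myelinated nerve, so their values in naïve and injured myelinated nerve are given as a description, with no test. The other 8 genes were chosen as members of the same class, and the same measure was tested in them.

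Imprinted genes are expressed mainly from 1 parental copy, which is marked by DNA methylation set in the germ line. Many of them act on growth: as a rule the paternally expressed ones, such as Igf2, Dlk1, Peg3, Mest and Plagl1, promote it, and the maternally expressed ones, such as H19, Cdkn1c and Igf2r, restrain it. Grb10, Meg3 and H19 are read from the maternal copy in most tissues, while Grb10 in neurons is read from the paternal copy. These RNA levels were not split by parental copy, so they say nothing of imprinting itself.

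RNA of 3 tissues of C57BL/6 mice was sequenced in bulk, in 36 libraries. The mice were 2 to 4 months old, and the tissues were the unmyelinated optic nerve (UON, about 200 µm at the nerve head), the first myelinated stretch behind it (MON) and the whole retina. Mice were naïve, had a crush of 1 optic nerve (3 D and 2 W later), or had microbeads injected in 1 eye to raise its pressure, the glaucoma model (3 D, 2 W and 6 W later). Each of the 18 groups held 1 female and 1 male library, each a pool of RNA from 2 mice, and the same mice gave all 3 tissues. No genotype was altered, the controls were untouched mice rather than sham-operated ones, and the 2 naïve pools of a tissue served as controls for both models, so comparisons with them are not independent.

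Total counts ran from 16.2 M to 78.1 M per library (M, mega), and naïve MON had 78.1 M in the female and 17.8 M in the male pool. The tissues carried their markers: the summed level of 10 photoreceptor genes was 56664 to 72160 CPM (counts scaled to the library's size and composition) in retina and at most 338 CPM in nerve, and that of 10 oligodendrocyte genes was 45065 to 168819 CPM in MON against 3545 to 43072 CPM in UON. The 14 fibroblast genes of sclera and meninges summed to 1959 to 6817 CPM in UON, 556 to 2163 CPM in MON and 18.8 to 51.7 CPM in retina. A count here is not a read: each read pair gave about 4 counts, so a value of 9 or 20 counts rests on a few pairs.

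The sequences before 4 of the genes show how different their start sites are in CpG content, the substrate of imprint methylation. Shares of transcripts from or close to these starts are described below for Meg3, Grb10 and Igf2, and none is given for Mest. All are from RefSeq on GRCm38.p6, 150 bases upstream of a start, in the direction of transcription, with CG in capitals. The first Meg3 window, chr12:109540846-109540995 on the plus strand, lies before the start of Meg3-205 and close to that of Meg3-207, and the second, chr12:109545248-109545397, before that of Meg3-209. The Grb10 windows on the minus strand, chr11:12037421-12037570 and chr11:12027972-12028121, precede Grb10-201 and Grb10-203. The Igf2 windows on the minus strand, chr7:142657497-142657646 and chr7:142661272-142661421, precede Igf2-201 and Igf2-204. The Mest window, chr6:30737900-30738049 on the plus strand, precedes Mest-211.
Meg3, start of Meg3-205: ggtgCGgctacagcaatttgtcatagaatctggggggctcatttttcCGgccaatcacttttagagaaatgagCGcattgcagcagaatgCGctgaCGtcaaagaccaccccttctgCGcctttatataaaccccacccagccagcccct
Meg3, start of Meg3-209: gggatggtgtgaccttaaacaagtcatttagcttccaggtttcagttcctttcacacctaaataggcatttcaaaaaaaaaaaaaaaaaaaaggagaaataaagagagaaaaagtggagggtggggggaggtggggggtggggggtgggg
Grb10, start of Grb10-201: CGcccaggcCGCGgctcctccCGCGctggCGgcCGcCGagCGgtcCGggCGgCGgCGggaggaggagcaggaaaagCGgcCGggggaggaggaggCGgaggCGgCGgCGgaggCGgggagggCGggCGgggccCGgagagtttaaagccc
Grb10, start of Grb10-203: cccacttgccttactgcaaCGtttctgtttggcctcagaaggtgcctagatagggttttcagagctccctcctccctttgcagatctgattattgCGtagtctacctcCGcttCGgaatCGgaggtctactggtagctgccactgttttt
Igf2, start of Igf2-201: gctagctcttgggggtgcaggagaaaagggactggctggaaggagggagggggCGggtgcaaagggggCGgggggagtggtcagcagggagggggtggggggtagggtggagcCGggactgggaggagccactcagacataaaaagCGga
Igf2, start of Igf2-204: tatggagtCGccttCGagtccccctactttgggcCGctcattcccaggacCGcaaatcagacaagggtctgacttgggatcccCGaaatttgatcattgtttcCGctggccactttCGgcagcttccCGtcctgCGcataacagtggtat
Mest, start of Mest-211: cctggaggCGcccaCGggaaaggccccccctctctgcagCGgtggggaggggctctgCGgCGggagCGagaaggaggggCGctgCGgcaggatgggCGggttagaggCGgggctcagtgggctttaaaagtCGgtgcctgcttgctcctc

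In the 250 bases before each start, the Grb10-201 window held 40 CpG and the Grb10-203 window 8, while the Meg3-205 window held 10 and the Meg3-209 window 0. The median over 32817 promoters of the genome was 6. TGCCGC, the hexamer bound by the imprint-protecting protein ZFP57, was searched on both strands. It was found in 4 of 15 windows of 8 of the genes, 1 of Meg3, 2 overlapping ones of Mest and 1 of Plagl1, and in 8.68% of all promoters. Such a match is a description of the letters only.

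In retina the highest levels per length were those of Meg3 and Mest. Meg3, a long non-coding RNA of the Dlk1 domain, had a median of 68.3 FPKM (fragments scaled to transcript length and library size) over 12 retina libraries, against 2.72 FPKM in UON and 3.48 FPKM in MON. Mest, which encodes a hydrolase-like protein of mesoderm, had 54.3 FPKM in retina, 2.89 FPKM in UON and 4.77 FPKM in MON. For both genes the lowest retina library lay above the highest nerve library, at 48.8 against 14.3 FPKM for Meg3 and 42.9 against 8.46 FPKM for Mest.

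In UON the highest median was that of Igf2, a secreted growth factor, at 28.1 FPKM, against 5.18 FPKM in MON and 4.14 FPKM in retina. It was followed in UON by Cdkn1c at 14.9, Peg3 at 12.1 and Grb10 at 9.66 FPKM, and the ranges of these neighbours over the 12 libraries overlapped. Igf2r, the receptor that takes Igf2 up for degradation, had a median of 3.32 FPKM in UON, 3.30 FPKM in MON and 1.86 FPKM in retina. Plagl1, a zinc-finger factor, had 1.58 FPKM in UON, 3.73 FPKM in MON and 2.92 FPKM in retina. H19 had medians of 0.381, 0.242 and 0.135 FPKM, and Dlk1 of 0 FPKM in UON, 0.106 FPKM in MON and 0 FPKM in retina. Cdkn1c, a cyclin-dependent kinase inhibitor, was the most even, with 14.9, 13.5 and 12.7 FPKM.

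**Figure D1:**
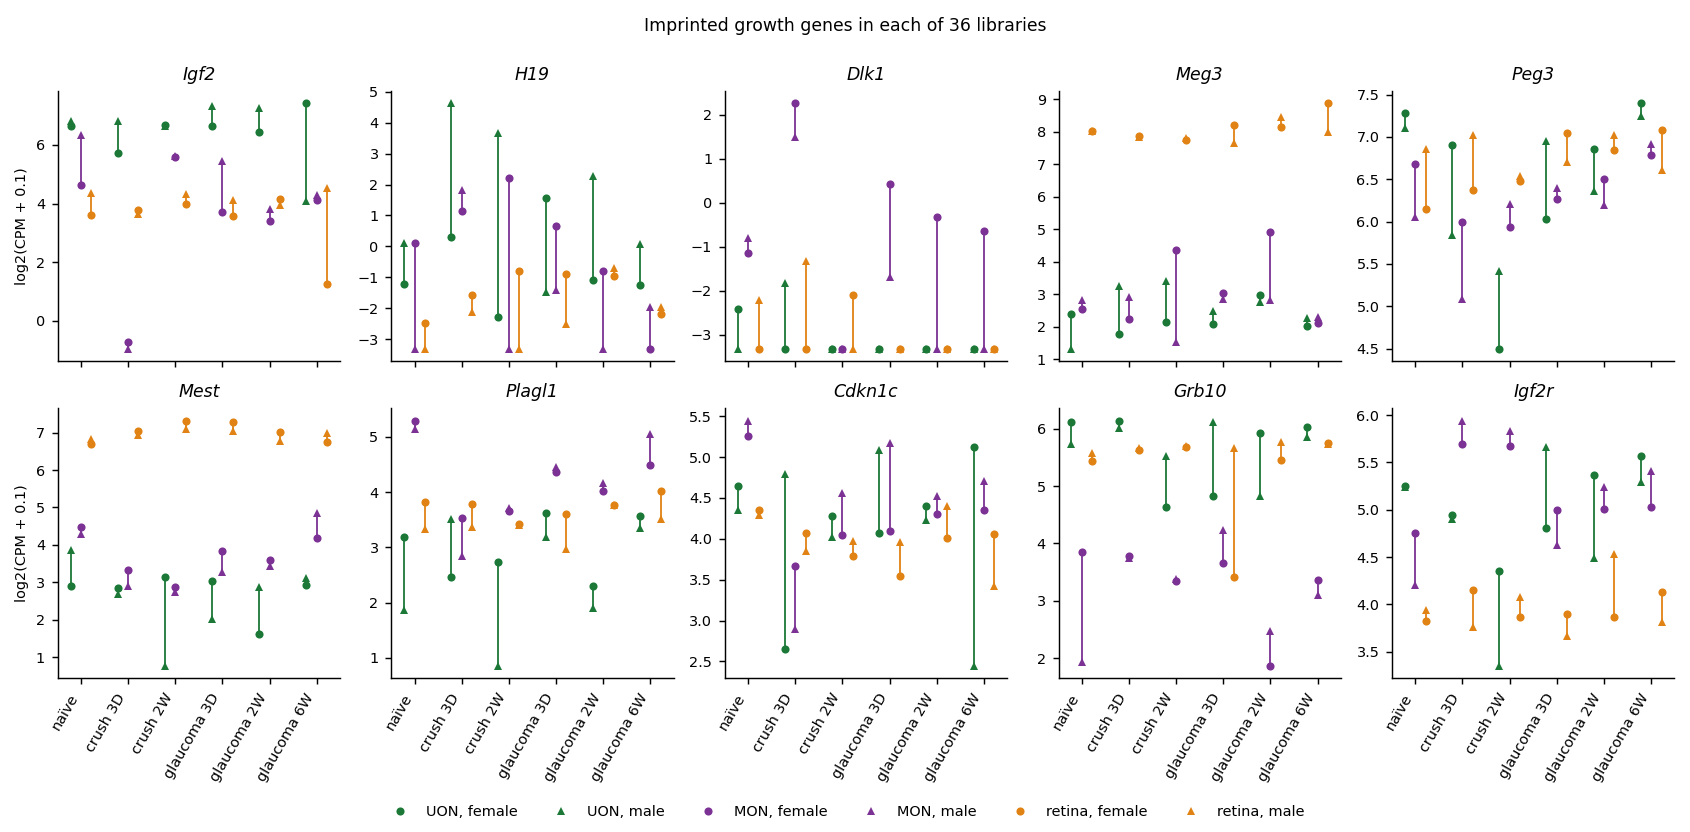
Level of each of the 10 genes as log2(CPM + 0.1) on the y axis for the 6 groups of mice on the x axis, with circles for female and triangles for male pools, colours for UON, MON and retina, and a line joining the 2 pools of a group. The retina points of Meg3 and Mest lie above all nerve points, the Igf2 points of MON drop to 0.413 and 0.501 CPM at 3 D after crush, and most Dlk1 points lie at or near the floor.

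Among naïve tissues, 11 of 26 tests of a member passed an adjusted p under 0.05 with a log2 fold change beyond 1 (edgeR, 2 pools a tissue), 5 higher and 6 lower in the first-named tissue. The members were 2 of 8 called between UON and MON, where 9.63% of 23685 genes were called, 4 of 10 between UON and retina, where 31.7% were, and 5 of 8 between MON and retina, where 27.6% were. Igf2 and Dlk1 were left out of the tests that used naïve MON. In bulk tissue a lower value can come from fewer cells of a type or from less RNA per cell, and these cannot be told apart.

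Igf2 was higher in UON than in retina. Naïve UON held 99.4 and 113 CPM in the female and male pools against 12.2 and 20.3 CPM in naïve retina, so the groups did not overlap. The log2FC was 2.84 ± 0.40 (SE), with an adjusted p of 0.00143 (edgeR). Naïve MON, given without a test, held 24.6 CPM in the female and 81.2 CPM in the male pool, the widest gap between naïve pools of this gene. Igf2r was also higher in UON, with 37.9 and 37.8 CPM against 14.1 and 15.3 CPM in retina, a log2FC of 1.40 ± 0.26 (adjusted p = 0.00547), which limma on log2(FPKM + 1) did not call (0.78, adjusted p = 0.0672). Its 26.9 and 18.3 CPM in MON did not differ from either tissue at the threshold (log2FC of UON over MON 0.73 ± 0.26, adjusted p = 0.136). The fibroblast genes were at 3598 and 3568 CPM in the female and male pool of naïve UON and 840 and 592 CPM in those of naïve MON and 33.4 and 20.9 CPM in those of naïve retina. Between the 2 naïve MON pools the order of the fibroblast sum and of Igf2 was opposite. Their part in the result was not tested.

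Grb10, an adaptor that binds the insulin and IGF1 receptors and dampens their signal, was lower in MON than in both other tissues. MON held 14.4 and 3.71 CPM, UON 69.8 and 53.3 CPM and retina 43.1 and 47.7 CPM. The log2FC of UON over MON was 2.88 ± 0.46 (adjusted p = 0.0109, edgeR) and that of MON over retina -2.46 ± 0.46 (adjusted p = 0.0064). With limma on log2(FPKM + 1) the first missed the threshold (2.30, adjusted p = 0.0511). UON and retina did not differ at the threshold (log2FC 0.42 ± 0.43, adjusted p = 0.487).

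Plagl1 had the opposite order, with its highest naïve level in MON. MON held 39.1 and 35.3 CPM, UON 9.01 and 3.53 CPM and retina 14.0 and 9.96 CPM. The log2FC of UON over MON was -2.72 ± 0.39 (adjusted p = 0.00679, edgeR) and that of MON over retina 1.74 ± 0.37 (adjusted p = 0.0106). Without the male naïve MON pool the second lost its call (log2FC 1.32, adjusted p = 0.060). Cdkn1c, a target of Plagl1 in other tissues, held 38.1 and 43.5 CPM in MON against 20.3 and 19.5 CPM in retina (log2FC 1.11 ± 0.25, adjusted p = 0.0148). This call was lost without the male MON pool (log2FC 0.91, adjusted p = 0.0556), the female retina pool (1.12, 0.0624) or the male retina pool (1.09, 0.0851), and also in 1 fit of all libraries (1.10, adjusted p = 0.21) and with limma on log2(FPKM + 1) (0.76, 0.143). Summed oligodendrocyte genes were 168819 and 123775 CPM in the female and male pool of naïve MON and 28716 and 22131 CPM in those of naïve UON, and their part in these differences was not tested.

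Meg3 and Mest were lower in both nerve regions than in retina. Meg3 held 5.15 and 2.38 CPM in UON, 5.73 and 7.01 CPM in MON, and 260.1 and 262 CPM in retina. Its log2FC was -6.11 ± 0.43 in UON (adjusted p = 6.53e-05, edgeR) and -5.29 ± 0.41 in MON (adjusted p = 0.000117). Mest held 7.32 and 14.5 CPM in UON, 22.2 and 19.5 CPM in MON, and 103 and 113 CPM in retina. Its log2FC was -3.32 ± 0.31 in UON (adjusted p = 0.000231) and -2.29 ± 0.30 in MON (adjusted p = 0.00118). Copg2 overlaps the end of Mest on the other strand and held 498 to 4333 counts, and counting by strand is not stated, so reads in the overlap cannot be divided between them.

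Between UON and MON, Mest (log2FC -1.03 ± 0.30, adjusted p = 0.0772, edgeR) and Meg3 (-0.81 ± 0.37, adjusted p = 0.232) missed the threshold. Mest passed it without the male UON pool (-1.51, adjusted p = 0.0229), the female retina pool (-1.04, adjusted p = 0.0366) or the male retina pool (-1.04, adjusted p = 0.0408), and Meg3 without the female UON pool (-1.53, adjusted p = 0.0142). Peg3, a zinc-finger protein, held 156 and 138 CPM in UON, 103 and 66.1 CPM in MON and 71.0 and 116 CPM in retina, and none of its 3 tests passed. Peg3 passed in MON over retina with limma on log2(FPKM + 1) (-1.03, adjusted p = 0.0302, against -0.09 with edgeR). In UON over retina its log2FC was 1.27 without the male retina pool, against 0.69 with all pools. That of Plagl1 in UON over retina was -1.57 without the female UON pool, against -0.98 with all pools. H19, a non-coding RNA that shares its enhancers with Igf2, held 15 and 41 counts in naïve UON, 62 and 0 counts in naïve MON, and 4 and 0 counts in naïve retina. Its log2FC of UON over retina, 5.55 ± 2.82 (adjusted p = 0.175), passed only with DESeq2 (6.25, adjusted p = 0.0268) and without the female UON pool (10.14, adjusted p = 0.0191) among the settings tried. Dlk1 held 4 and 0 counts in naïve UON, 22 and 8 in MON and 0 and 5 in retina.

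**Figure D2:**
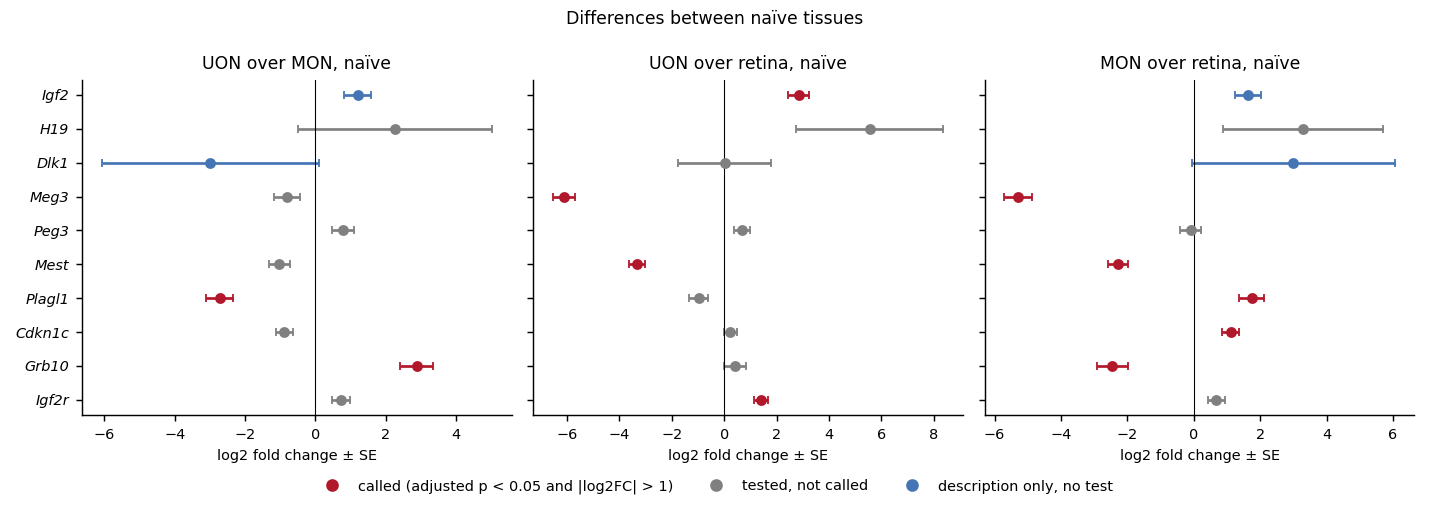
Log2 fold change (x axis) with its SE for the 10 genes (y axis) in UON over MON, UON over retina and MON over retina of naïve mice, 2 pools a tissue. Red points were called, grey ones were tested and not called, and blue ones carry no test. Meg3 lies at -6.11 and -5.29 in the nerve regions over retina, and Grb10 and Plagl1 lie on opposite sides of 0 in UON over MON.

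The IGF axis was a list of 21 genes that carry, bind or transmit IGF signals. Of 20 genes tested, 7 were higher and 1 lower in UON than in MON, where 9.63% of all genes were called, with a median log2FC of 1.02 against -0.06 over all genes. The 7 included 6 IGF-binding proteins, and those with the largest change were Stc2, an inhibitor of the protease that frees IGF (log2FC 3.56 ± 0.84, adjusted p = 0.0415, edgeR), Igfbp6, which prefers Igf2 (3.41 ± 0.79, 0.0385), Igfbp7 (1.95 ± 0.28, 0.00686) and Igfbp4 (1.84 ± 0.29, 0.00955). The one lower was Irs2, a docking protein of the IGF1 and insulin receptors (-1.54 ± 0.20, 0.00504). Over retina, 4 were higher and 3 lower in UON, where 31.7% of all genes were called, and 4 higher and 5 lower in MON, where 27.6% were.

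Other imprinted genes were called between UON and MON about as often as all genes (9.63%). Of 20 paternally expressed ones tested, 2 were higher and none lower in UON than in MON: Nnat, a small membrane protein (log2FC 2.45 ± 0.52, adjusted p = 0.0287, edgeR), and Rasgrf1, an exchange factor for Ras (1.59 ± 0.20, 0.00471). Of 23 maternally expressed ones, Osbpl5 was higher (1.17 ± 0.21, 0.0173) and Ddc lower (-5.19 ± 0.93, 0.0162). Over retina, where 31.7% of all genes were called for UON and 27.6% for MON, 2 paternally expressed genes were higher and 7 lower in UON and 3 higher and 5 lower in MON, with medians of -0.89 and -0.81. Of the 23 maternally expressed ones, 6 were higher and 4 lower in UON and 5 higher and 2 lower in MON over retina, with medians of 0.02 and 0.74. Of 14 Notch genes, partners of Dlk1, 1 was higher in UON than in MON, Notch2 (1.34 ± 0.26, 0.0201), and of 11 genes that set or keep imprints and 5 further inhibitors of cyclin-dependent kinases none was called there. Over retina, 6 Notch genes were higher and 4 lower in UON and 2 higher and 3 lower in MON, 1 gene of imprint control was higher and 2 lower in UON and 1 higher in MON, and 2 of the kinase inhibitors were higher and 1 lower in each nerve region.

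In MON after crush, 3 of 16 tests of members were called (edgeR), all at 3 D: Igf2r was higher and Plagl1 and Cdkn1c were lower than in naïve MON. At 3 D these were 3 of 8 tested members, where 4.26% of 19988 genes were called, and at 2 W 0 of 8, where 2.72% were. The rule chose Igf2 and Dlk1 on this contrast, so their values carry no test. Marker genes moved too. The 12 proliferation genes summed to 730.2 and 917 CPM at 3 D against 89.1 and 88.3 CPM in naïve MON, the 10 microglia and macrophage genes to 2074 and 2822 against 999 and 931 CPM, and the 10 oligodendrocyte genes to 84779 and 74576 against 168819 and 123775 CPM, with no microglial or oligodendrocyte gene at 0. The lists of endothelium (286 to 383 against 175 to 198 CPM), pericytes and smooth muscle (245 to 265 against 139.9 to 148 CPM) and blood (729.9 to 1562 against 475 to 595 CPM) were also higher at 3 D without overlap. Of 12 adipocyte genes, 3 to 7 a library were at 0 at 3 D, their sum of 905 and 2227 CPM exceeded that of naïve MON (435 and 283 CPM), and Adipoq, which defines the cell type, was at 0 in 11 of 12 MON libraries. Gpd1, which other cells express too, averaged 139.6 FPKM over the 12 MON libraries, and the next adipocyte genes, Lipe and Cidea, 8.73 and 8.70 FPKM. The part of these shifts in the results was not tested.

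Igf2 in MON held 1543 and 1379 counts in the naïve female and male pools, 9 and 20 at 3 D after crush, and 805 and 1661 at 2 W. On the CPM scale these were 24.6 and 81.2, then 0.501 and 0.413, then 47.8 and 48.9. The 3 D pools lay far below all 10 other MON libraries, of which the lowest held 10.6 CPM, and the 2 W pools lay within the naïve range. The fitted log2FC at 3 D was -6.73 ± 0.65, a level 106-fold lower, and at 2 W 0.13 ± 0.49.

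Another annotated gene takes part of these counts. Gm49394 (chr7:142650769-142669942, GRCm38, minus strand) is annotated with last 3 exons that are those of Igf2 (chr7:142650766-142666816, minus strand). Its exons 1 and 2 lie upstream of Igf2. The pair shares 3596 exon bases, 62.8% of those of Igf2 and 75.9% of those of Gm49394. Gm49394 held 0 counts in 32 of 36 libraries. It held 231 and 347 counts in the 2 MON pools at 3 D after crush, where Igf2 held 9 and 20, 35 counts in the female MON pool at 2 W of glaucoma, where Igf2 held 243, and 622 counts in the female retina pool at 6 W of glaucoma, where Igf2 held 96. Igf2 had its lowest level of a tissue in both tissues where Gm49394 was counted. Which of the genes the reads in the shared exons came from cannot be told from the counts.

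With the counts of both genes added, an alternative chosen after seeing the data, the 3 D crush pools held 240 and 367 counts. The fitted log2FC became -2.13 ± 0.63, a level 4.39-fold lower instead of 106-fold, and that of 2 W over 3 D became 2.16 ± 0.60 instead of 6.86 ± 0.65. The summed level at 3 D remained the lowest group mean among the 6 MON groups, but it no longer stood far apart. The next lowest was 2 W of glaucoma, with a summed log2FC over naïve of -1.78 ± 0.49, a level 3.44-fold lower. The 2 groups were not tested against each other. In retina at 6 W of glaucoma, the log2FC moved from -0.67 ± 0.72 to 0.32 ± 0.26, and neither was called (adjusted p = 0.908 and 0.885, edgeR).

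**Figure D3:**
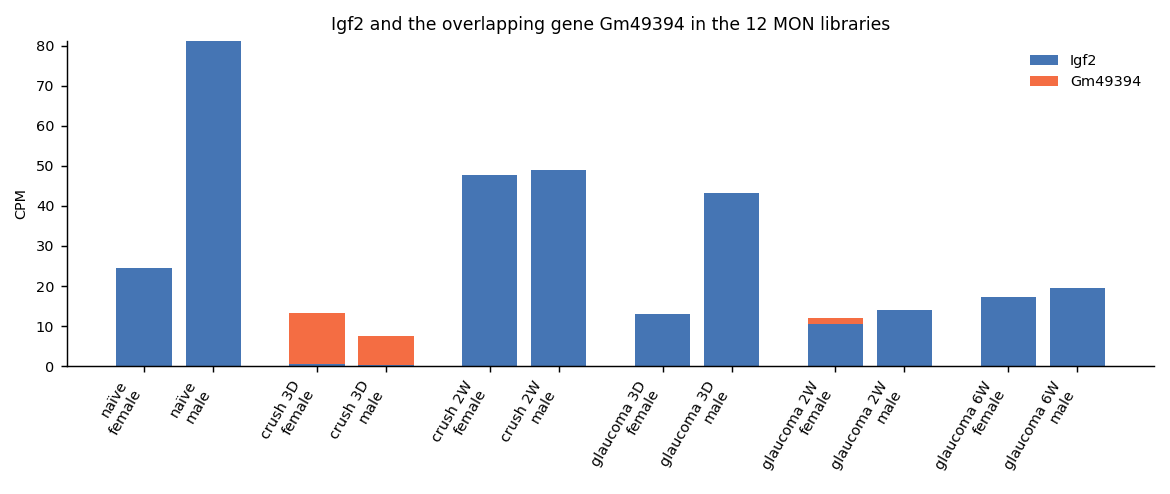
CPM (y axis, from 0) of Igf2 in blue with Gm49394 stacked in orange for each of the 12 MON libraries (x axis, 6 groups, female and male pool). The bars at 3 D after crush are almost wholly Gm49394, with 0.501 and 0.413 CPM of Igf2, and no other library but the female pool at 2 W of glaucoma shows any.

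Dlk1, a membrane protein related to the Notch ligands, held 22 and 8 counts in naïve MON, 84 and 131 at 3 D and 0 and 0 at 2 W after crush. The 3 D pools, at 4.68 and 2.71 CPM, lay above the 10 other MON libraries, of which the highest held 1.24 CPM. The log2FC at 3 D was 3.24 (SE 1.003), a 9.48-fold higher level. The naïve mean was 3.08-fold and the 3 D mean 27.7-fold a nominal floor of 3 counts per library at 2 W. That floor is less than 1 read pair, at about 4 counts each, so these folds are not lower bounds. The counts of Dlk1 stand for few molecules. In UON and retina the gene held at most 5 and 14 counts in any library and was filtered out of all injury fits. None of the 13 Notch genes tested was called in MON at 3 D or 2 W.

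Igf2r rose in MON at 3 D after crush, with 51.6 and 61.3 CPM against 26.9 and 18.3 CPM in naïve MON, and the groups did not overlap. The log2FC was 1.42 ± 0.28 (adjusted p = 0.0379, edgeR). At 2 W the pools held 50.8 and 56.9 CPM, with a log2FC of 1.36 ± 0.28 that missed the threshold (adjusted p = 0.0553). Airn, a non-coding RNA read across Igf2r on the other strand, held 4 to 333 counts over all libraries, and the strand of counting is not stated.

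Plagl1 and Cdkn1c fell at 3 D. Plagl1 held 11.4 and 7.07 CPM against 39.1 and 35.3 CPM in naïve MON (log2FC -1.93 ± 0.35, adjusted p = 0.0294, edgeR). At 2 W it held 12.5 and 12.99 CPM (-1.44 ± 0.35, adjusted p = 0.0796). Cdkn1c held 12.6 and 7.33 CPM against 38.1 and 43.5 CPM (-1.94 ± 0.41, adjusted p = 0.0456), and 16.4 and 23.5 CPM at 2 W (-0.94 ± 0.39, adjusted p = 0.30). Both genes had their lowest MON library among the 3 D crush pools.

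The 3 calls at 3 D each rested on 3 of the 6 libraries in the fit. Without the male crush pool, the female naïve pool or the male naïve pool the adjusted p was 0.0838, 0.144 and 0.167 for Plagl1 (log2FC -1.60, -2.08 and -1.80). It was 0.144, 0.165 and 0.214 for Cdkn1c (-1.39, -2.17 and -1.74) and 0.14, 0.111 and 0.26 for Igf2r (1.24, 1.76 and 1.11). At 2 W, by contrast, Igf2r, Plagl1 and Mest passed when a 3 D pool, which shares the fit, was left out: without the female one (adjusted p = 0.0107, 0.0135 and 0.0307, edgeR) and without the male one (0.00945, 0.00812 and 0.0223). All 3 also passed with DESeq2 (adjusted p = 0.00336, 0.00606 and 0.00964), with no filter (0.00912, 0.0215 and 0.0435), without the sex term (0.0262, 0.0495 and 0.049) and in 1 fit of all MON libraries (0.0181, 0.0262 and 0.0351). Igf2r also passed without the female 2 W pool (log2FC 1.53, adjusted p = 0.0173), and Plagl1 (-1.69, adjusted p = 0.0378) and Meg3 (2.03, adjusted p = 0.0237) without the male 2 W pool.

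Mest held 10.03 and 7.42 CPM at 3 D and 7.19 and 6.63 CPM at 2 W against 22.2 and 19.5 CPM in naïve MON, without overlap. Its log2FC of -1.17 ± 0.36 (adjusted p = 0.12, edgeR) and -1.50 ± 0.36 (adjusted p = 0.0814) missed the threshold. At 3 D Mest passed with DESeq2 (-1.21, adjusted p = 0.0481). Peg3 (63.7 and 33.7 CPM at 3 D, 103 and 66.1 CPM in naïve MON) had a log2FC of -0.70 ± 0.34 (adjusted p = 0.291), and Meg3 of 0.04 ± 0.79 (adjusted p = 0.989). Grb10 had 0.87 ± 0.53 (adjusted p = 0.398), with 13.7 and 13.4 CPM at 3 D against 14.4 and 3.71 CPM. H19 held 38 and 168 counts at 3 D against 62 and 0, and its fitted 5.12 ± 2.28 (adjusted p = 0.254) depended on the naïve pool at 0. It passed with no filter on low counts (5.19, adjusted p = 0.00255) and without the female 3 D pool (11.77, adjusted p = 1.97e-06) or the male 2 W pool (3.17, adjusted p = 0.0497).

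Around the members in MON, where 4.26% of all genes were called at 3 D and 2.72% at 2 W, Igf1, the related growth factor, was the 1 gene called of 18 in the IGF axis at 3 D (log2FC 4.51 ± 0.62, adjusted p = 0.0141, edgeR). At 2 W there were 2 of 18, Igf1 (5.59 ± 0.66, 0.0153) and Igfbp4 (2.32 ± 0.30, 0.0194). Of 11 genes that set or keep imprints, Uhrf1, which guides maintenance methylation to newly made DNA (4.26 ± 0.45, 0.00822), and Dnmt1, the maintenance methyltransferase (1.33 ± 0.25, 0.0334), rose at 3 D, and Tet1, which oxidises methylated cytosine, fell (-1.44 ± 0.30, 0.0418). Uhrf1 and Dnmt1 are also genes of dividing cells. Of 5 further inhibitors of cyclin-dependent kinases Cdkn2c rose at 3 D (1.61 ± 0.34, 0.0472). None of 18 other paternally expressed or 20 other maternally expressed imprinted genes was called at 3 D or 2 W.

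**Figure D4:**
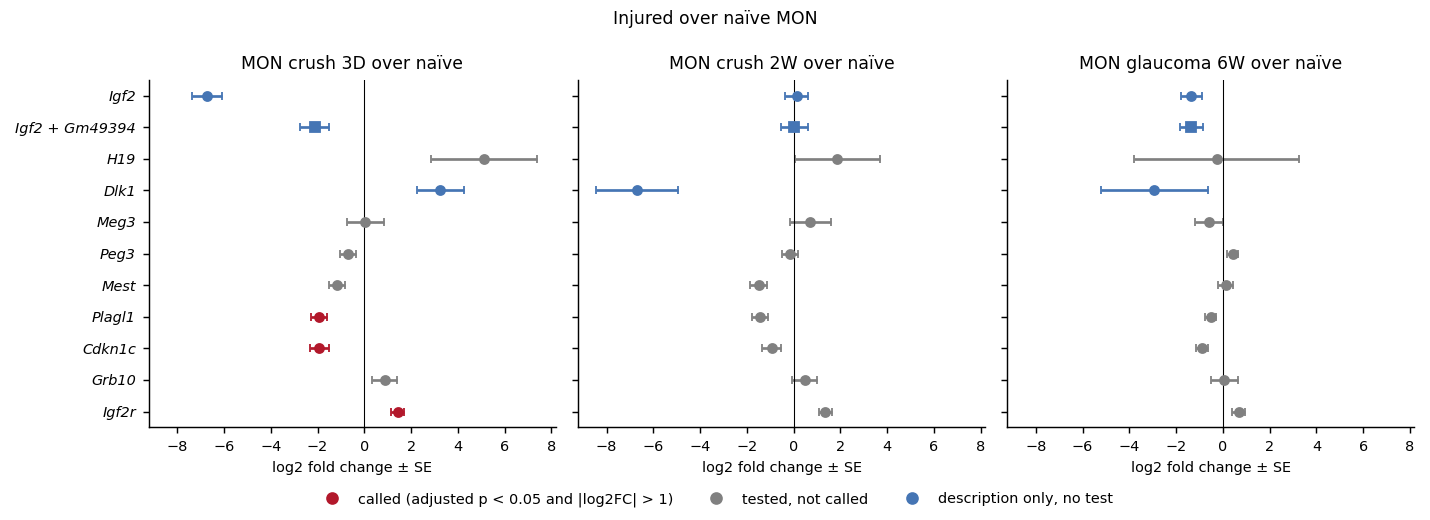
Log2 fold change over naïve MON (x axis, with SE) of the 10 genes and of Igf2 with Gm49394 added (y axis) at 3 D and 2 W after crush and at 6 W of glaucoma. Red points were called, grey ones were tested and not called, and blue ones carry no test. Igf2 lies at -6.73 at 3 D after crush and at -2.13 once Gm49394 is added, and the Dlk1 point at 2 W after crush rests on pools at 0 counts and is no bound.

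In MON under glaucoma none of 24 tests of members was called (edgeR), and 0% of 22960 genes were at 3 D, 0% at 2 W and 0% at 6 W. These shares belong to the edgeR fit: the study, with DESeq2 at the same limits, did call genes in MON and UON at 3 D and 2 W of glaucoma. Plagl1 held 20.5 and 21.8 CPM at 3 D, 16.2 and 17.8 CPM at 2 W and 22.4 and 32.9 CPM at 6 W, all under its naïve pools. Its log2FC was -0.87 ± 0.24, -1.12 ± 0.24 and -0.51 ± 0.24 (adjusted p = 0.443, 0.293 and 0.849), and that at 2 W passed with DESeq2 (-1.13, adjusted p = 0.00632). Cdkn1c was also below its naïve pools throughout, with log2FC of -0.74, -0.93 and -0.89 (adjusted p = 0.553, 0.406 and 0.849). Igf2 held 12.9 and 43.2, 10.6 and 14.1, and 17.4 and 19.5 CPM at the 3 times. Over crush and glaucoma together, 17 of 40 member tests in MON had an unadjusted p under 0.05. So did 21% and 16% of all genes at 3 D and 2 W after crush, and 8.07%, 8.78% and 4.91% at 3 D, 2 W and 6 W of glaucoma. DESeq2 called 8 of the 40 and limma on FPKM 0. The share of all genes that DESeq2 or limma called was not worked out, so the 8 cannot be set against the edgeR shares.

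In UON none of 45 tests of members was called over 5 comparisons with naïve (edgeR), 2 had an unadjusted p under 0.05 (2.01% to 9.27% of all genes did per comparison), and DESeq2 called 1 and limma 0. Few genes were called there at all by edgeR: 0% of 21368 at 3 D and 0.0281% at 2 W after crush, and 0% of 22438 at 3 D, 0% at 2 W and 0% at 6 W of glaucoma. Shares of all genes for DESeq2 and limma were not worked out. Peg3 held 22.5 and 42.6 CPM at 2 W after crush against 156 and 138 CPM in naïve UON, a log2FC of -2.14 ± 0.50 (adjusted p = 0.442), and was the gene called by DESeq2 (-2.11, adjusted p = 0.00292). Igf2r held 20.3 and 10.1 CPM against 37.9 and 37.8 CPM (-1.37 ± 0.39, adjusted p = 0.489). Both groups lay below naïve without overlap. The 7 blood genes summed to 4735 and 3654 CPM in the female and male pool of this group against 233 and 548 CPM in naïve UON. The microglia and macrophage genes were at 934 to 1763 against 550.3 to 678 CPM and genes of other retinal neurons at 28.8 to 52.7 against 76.2 to 94.9 CPM, and the male pool had the lowest oligodendrocyte sum in UON (3545 CPM). Their part in these values was not tested.

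The pools of a UON group often lay far apart. At 6 W of glaucoma Igf2 held 171 CPM in the female and 16.9 CPM in the male pool, which were the highest and the lowest of all 12 UON libraries, and Cdkn1c 34.7 and 5.34 CPM. The fibroblast genes summed to 4647 and 1959 CPM in these pools, the latter the lowest in UON, and the blood genes to 513 and 2654 CPM, and their part was not tested. H19 held 24.5 and 12.6 CPM in the male pools at 3 D and 2 W after crush, and at most 4.78 CPM in the 10 other UON libraries. The fibroblast genes summed to 6817 and 5359 CPM in those male pools against 2996 and 2828 CPM in the female pools of the same groups. The part of these cells in the H19 values was not tested.

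The change in MON was compared with that in UON in 1 fit. None of 40 differences was called (edgeR), where 0.012% of 25011 genes were at 3 D and 0% at 2 W after crush, and 0% of 25807 at each of 3 D, 2 W and 6 W of glaucoma. Unadjusted, 6 had a p under 0.05 (3.1% to 10.9% of all genes did per comparison), and DESeq2, whose share over all genes was not worked out, called 1. That was Igf2r at 2 W after crush, for which the MON change exceeded the UON change by 2.70 ± 0.48 on the log2 scale (adjusted p = 0.146, edgeR). With DESeq2 the value was 2.61 (adjusted p = 0.000198), with no filter 2.62 (adjusted p = 0.000361) and without the female UON pool at 2 W 3.27 (adjusted p = 0.0016). At 3 D the differences were 1.69 ± 0.47 for Igf2r (adjusted p = 0.423), -2.64 ± 0.90 for Plagl1 (adjusted p = 0.549) and -1.47 ± 0.83 for Cdkn1c (adjusted p = 0.807). With no filter Plagl1 passed at 3 D (-2.70, adjusted p = 0.0273) and Peg3 at 2 W (1.84, adjusted p = 0.0181). This fit held group and sex and did not pair UON with MON of the same mice. With the mouse pool as a block, a setting added after seeing the data, again 0 of 40 were called and 8 had an unadjusted p under 0.05, with Igf2r at 2 W at 2.76 ± 0.50 (adjusted p = 0.0678) and at 3 D at 1.69 ± 0.49 (0.356), Peg3 at 2 W at 2.03 ± 0.41 (0.0926) and Plagl1 at 3 D at -2.49 ± 0.88 (0.521). Over all genes the block moved the calls from 3 to 10 at 3 D and from 0 to 23 at 2 W after crush, and from 0 to 1 at 2 W of glaucoma. For Igf2, without a test, the difference at 3 D was -6.39 ± 0.74 and, with Gm49394 added, -1.78 ± 0.75.

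In retina none of 45 tests of members was called (edgeR), 3 had an unadjusted p under 0.05 (5.67% to 8.99% of all genes did per comparison), and DESeq2 and limma called 0 each. Of 22671 genes 0.0221% were called at 3 D and 0.313% at 2 W after crush, and of 23301 genes 0.00429% at 3 D, 0% at 2 W and 0.00858% at 6 W of glaucoma. The most precise values were those of Meg3 and Mest at 2 W after crush: Meg3 held 213 and 223 CPM against 260.1 and 262 CPM (log2FC -0.30 ± 0.11, adjusted p = 0.45), and Mest 159.8 and 136 CPM against 103 and 113 CPM (0.40 ± 0.12, adjusted p = 0.374). H19 held 4 and 0 counts in naïve retina and 0 to 29 counts in the injured pools, and its fitted log2FC was 2.11 to 3.85 in the 5 comparisons with SEs of 1.73 to 2.27 (adjusted p of 0.788 to 0.919). Grb10 held 10.5 CPM in the female pool at 3 D of glaucoma and 43.1 to 54.2 CPM in the 11 other retina libraries. Igf2 ranged from 2.30 to 22.8 CPM, and its lowest value was the library in which Gm49394 was counted.

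Between times none of 54 tests of members was called (edgeR), 5 had an unadjusted p under 0.05 (4.54% to 12.5% of all genes did per comparison) and DESeq2 called 0. The shares of all genes called were 0.00468% in UON, 0.075% in MON and 0.0485% in retina for crush 2 W over 3 D, and 0% in UON, 0% in MON and 0.0129% in retina for glaucoma 6 W over 3 D. The tests included Igf2 and Dlk1 in MON for glaucoma 6 W over 3 D, with log2FC of -0.36 and -2.34, the latter at few counts. In MON from 3 D to 2 W after crush, Cdkn1c had a log2FC of 0.996 ± 0.405 (adjusted p = 0.373) and Igf2r of -0.07 ± 0.28 (adjusted p = 0.955). H19 there had -3.25 ± 2.36 (adjusted p = 0.64), and passed without the female 2 W pool (-9.30, adjusted p = 0.00413) or the female 3 D pool (-9.50, adjusted p = 0.000334).

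The transcripts behind a gene differed between tissues, which is given as a description, since the software estimates how to divide reads among them. Meg3-209, from the start with no CpG shown above, made up 57.9% of the Meg3 counts in retina (41.5% to 73.4% per library), 11.7% in UON (0% to 36.6%) and 6.32% in MON (0% to 33.7%), so the retina libraries did not overlap those of nerve. Meg3-207, from the upstream start, made up 11.1% in retina, 39.7% in UON and 50.6% in MON. The nerve shares rest on 82 to 693 counts of Meg3 per library against 7477 to 19610 in retina.

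Peg3-203, annotated as a target of nonsense-mediated decay, made up 23.4% of the Peg3 counts in retina (0% to 44.1% per library) and at most 0.175% in any nerve library. Grb10-201, from the CpG-dense start shown above, made up 95.9% of the Grb10 counts in UON, 96.2% in MON and 82.8% in retina. Grb10-203, from the second start, made up 3.27%, 0.0753% and 10%. Its retina share ran from 0.257% to 36.5% per library with a median of 1.14%, so that 10% rests on a few libraries. Igf2-204 made up 17.4% of the Igf2 counts in UON (0% to 53.4% per library) and 11.6% in MON (0% to 37.1%, with counts in 4 of 12 libraries) and was listed at 0 in all 12 retina libraries, where Igf2-205 held 67.3% and Igf2-201 27.2%.

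**Figure D5:**
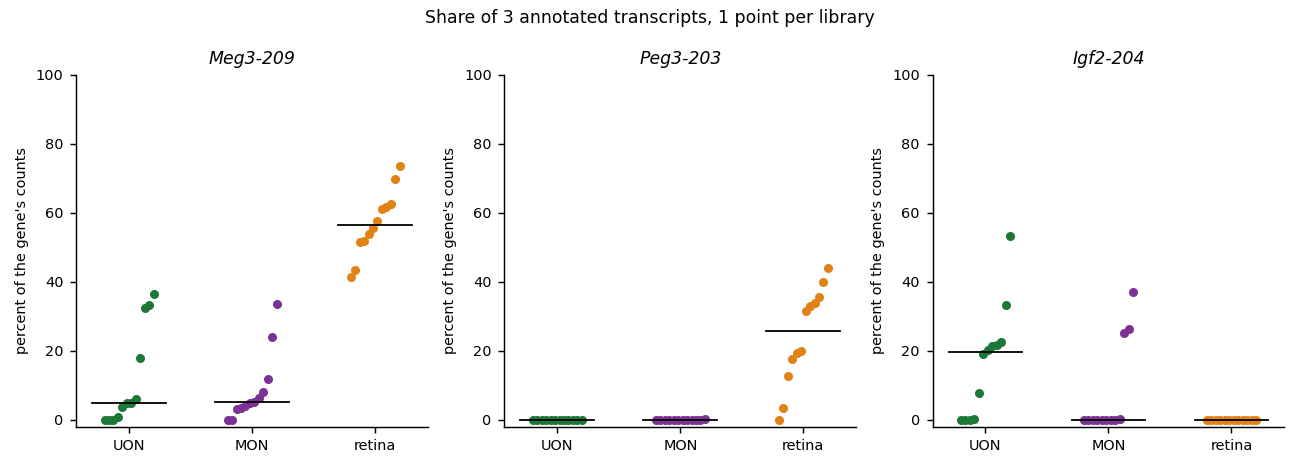
Share of a gene's counts (y axis, percent) held by Meg3-209, Peg3-203 and Igf2-204 in UON, MON and retina (x axis), 1 point per library and a line at the median of 12. Meg3-209 lies at 41.5% or more in every retina library and at 36.6% or less in nerve, and Igf2-204 is at 0% in retina.

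The 12 MON libraries share their controls and ran from 16.3 M to 78.1 M total counts. Over them, genes with at least 1 CPM on average were ranked by Pearson's r of log2 CPM, as a description. Those most like each of 4 members are given. For Igf2 these were Echdc2 (r = 0.95, Spearman's rho = 0.78), Rasl10a, Pard3b, Kcnma1 and Itm2c, and without the 2 crush pools at 3 D their r fell to between 0.55 and 0.73. With Gm49394 added they were other genes: Nr2f1 (r = 0.92, rho = 0.78), Cplx2, Col23a1, Ulk1 and Mgat5b. For Dlk1 they were BC052040 (r = 0.90, rho = 0.91), Il11, Ube2t, Dscc1 and Eme1, for H19 Hp (r = 0.89, rho = 0.92), Nxpe5, Gfra1, Gpr35 and Pdcd2l, and for Meg3 Hspbap1 (r = 0.88, rho = 0.82), Srbd1, H2-T24, Disp1 and Igsf9b. Without the 2 libraries farthest from the median, Disp1 fell from r = 0.80 to 0.01.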

How the data were processed

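The authors pooled RNA of 2 mice of a sex per library, sequenced paired ends, aligned the reads to GRCm38 with HISAT2 2.2.1 and assembled transcripts with StringTie 1.3.0 on Gencode M25. They deposited estimated counts per gene and transcript, whole numbers that StringTie's script derives from coverage, and FPKM and TPM values per library, in which 15 values below 0 were set to 0 here. Each count stands for about 74.9 bases of coverage, so a 150-base read pair gives about 4 counts. Strand is not given in the sources used here. The names and types of transcripts and the exons shared by Igf2 and Gm49394 were read from an earlier Gencode release than that behind the counts. The counts were tested as deposited with edgeR 4.0.16 (R 4.3.3), with TMM scaling and filterByExpr given the design of the fit. Its minimum count was 10, scaled to library size, in as many libraries as the design sets, and its minimum total was 15. A quasi-likelihood fit with group and sex followed, with Benjamini-Hochberg adjustment over all genes of a fit. Following the study's limits, calls required a log2 fold change beyond 1 together with an adjusted p below 0.05. The 3 naïve tissues, the crush libraries and the glaucoma libraries of each tissue were fitted apart, and differences between UON and MON in 1 fit per model.

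CPM used TMM factors over all 36 libraries. Within a tissue the female and male pools of a group are different mice. The sex term takes out a female-male difference that the groups of a fit share. The p-values therefore measure how much that difference varies between groups, with the spread moderated across genes. The sex term serves as the replicate block. Among naïve tissues it also pairs pools of the same mice. The UON and MON difference fits were not paired, so a block for the mouse pool was added after seeing the data, since all 3 tissues were taken from each animal. The female minus male differences of UON and MON, centred over groups, correlated across 15683 genes at r of -0.108 to 0.176 in the 6 groups. All 10 genes were named, and of the lists at most the 4 called genes with the largest change. Irs2, the 1 IGF axis gene called lower in UON than in MON, was named besides these. The members and lists were chosen with earlier results of these data known. Alternatives were DESeq2 1.42.0, RLE scaling, no filter, no sex term, 1 fit of all libraries, limma 3.58.1 on log2(FPKM + 1), leaving out each library, and adding Gm49394 to Igf2. The tests were tried on simulated data.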

Additional observations from a re-analysis of the deposited data

How the results depend on the processing

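Of the 14 called values of members, all 14 kept their call and sign with DESeq2, RLE scaling, no filter, no sex term and with Gm49394 added to Igf2, 13 in 1 fit of all libraries and 8 with limma on log2(FPKM + 1). When each library was left out in turn, 71 of 84 repeats kept the call and all 84 the sign. Called tests of MON injury numbered 3 and became 8 with DESeq2, 7 with no filter, 6 without the sex term (no replicate block), 6 in 1 fit of all libraries and 0 with limma, and 0 to 7 without 1 library: 0 without either naïve MON pool, 7 without the female crush pool at 3 D and 6 without the male crush pool at 2 W. The sex term changed no other group of tests by more than 1.5 times in its count, and a block for the mouse pool (mouse pool as replicate block) left the MON and UON difference at 0 calls. UON injury calls became 1 with DESeq2, calls of the MON and UON difference 1 with DESeq2, 3 with no filter and 0 to 1 without 1 library, and calls between times 0 to 1. Calls between naïve tissues ran from 9 to 14 without 1 library. Untested Dlk1 values changed sign, at few counts. Without 1 library its log2 fold change in MON ran from -6.61 to 0.64 at 2 W and from -6.49 to 0.24 at 6 W of glaucoma, above 0 without the male naïve MON pool. Its MON and UON difference ran from -1.53 (without the female naïve UON pool) to 7.15 at 3 D after crush and from -2.41 to 4.81 at 2 W of glaucoma, where DESeq2 gave -0.64. The Igf2 difference at 6 W of glaucoma ran from -2.41 to 1.73, the latter without the female UON pool of that group. The cause of these changes was not tested. The share of all genes called was worked out for the main edgeR fits and the mouse-pool block only. Counts of member calls under the other settings therefore have no such share to be read against. With 2 pools a group, a change missed here is not shown to be absent.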
